A study of Homo sapiens with 6 samples.

Results

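The genes described here encode the proteins that fuse transport vesicles with their target membranes: SNAREs, the factors that take SNARE complexes apart, the Sec1/Munc18 and other proteins that bind syntaxins, and the synaptotagmins and synaptotagmin-like proteins. They were matched by gene symbol, in a set chosen with earlier results of these data known, the large fall of VAMP7 among them. All chip symbols that begin with VAMP, STX, STXBP, SYT or SYTL and a number were taken, with the 19 further symbols SNAP23, SNAP25, SNAP29, SNAP47, NAPA, NAPB, NAPG, NSF, YKT6, SEC22A, SEC22B, SEC22C, BET1, BET1L, GOSR1, GOSR2, VTI1A, VTI1B and USE1. This gave 72 of the 31426 gene symbols on the chip, represented by 110 of its 47322 probes. RNA came from MDA-MB-231, a mesenchymal, triple-negative human breast cancer line cultured with fetal bovine serum. The 3 control arrays hold cells transduced with a scrambled short hairpin RNA (shRNA), and the 3 others hold cells transduced with an shRNA against the transcription factor SOX4. A single hairpin, labelled shSOX4#1, was used, so an effect of that hairpin on other transcripts cannot be told apart from an effect of SOX4 loss. Whether replicates were separate cultures is not stated in the labels, and p-values cover the spread among these arrays, which may be technical.

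Fusion is driven by a bundle of SNARE helices that zippers up between vesicle and target. The R-SNAREs, mostly VAMP proteins, usually sit on the vesicle, and the Q-SNAREs, which are syntaxins and SNAP-type or related proteins, usually sit on the target membrane. The ATPase NSF and its SNAP adaptors then pull the used bundle apart. VAMP7, also called tetanus-insensitive VAMP, has a regulatory longin domain and acts in late endosomes, lysosomes and exocytosis. In MDA-MB-231 cells it is known to carry the membrane-anchored protease MMP14 to the invading cell surface.

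Promoters are shown for the members with the largest fall (VAMP7), the next largest fall among the R-SNAREs (VAMP3) and the largest rise (STX3). Each is the 250 bases before the start that the RefSeq promoter table (GRCh38.p14) uses for the gene, on the plus strand, at chrX:155881095-155881344, chr1:7771046-7771295 and chr11:59755126-59755375. For STX3 that start lies inside the gene's RefSeq interval, which begins further upstream, so the STX3 window stands for 1 of its starts. Capitals mark matches to ACAAAG and ACAATG, words of the kind bound by SOX proteins, or to CCAAT, the word bound by NF-Y, on either strand.
VAMP7: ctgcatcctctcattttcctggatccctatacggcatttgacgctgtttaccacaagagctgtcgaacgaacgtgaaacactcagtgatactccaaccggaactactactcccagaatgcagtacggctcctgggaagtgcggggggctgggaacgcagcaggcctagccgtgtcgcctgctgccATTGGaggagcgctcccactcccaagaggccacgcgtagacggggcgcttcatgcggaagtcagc
VAMP3: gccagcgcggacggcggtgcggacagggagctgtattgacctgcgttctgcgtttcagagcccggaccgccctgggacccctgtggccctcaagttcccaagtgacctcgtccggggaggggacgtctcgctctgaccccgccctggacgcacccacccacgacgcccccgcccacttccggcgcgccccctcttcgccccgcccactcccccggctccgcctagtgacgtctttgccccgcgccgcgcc
STX3: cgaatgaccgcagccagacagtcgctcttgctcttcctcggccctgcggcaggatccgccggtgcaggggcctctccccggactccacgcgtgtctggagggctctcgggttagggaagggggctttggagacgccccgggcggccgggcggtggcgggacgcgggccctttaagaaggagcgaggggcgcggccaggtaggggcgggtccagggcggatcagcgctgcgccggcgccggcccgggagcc
None of the 3 windows held either SOX-type word, and the VAMP7 window held 1 CCAAT word, in reverse (ATTGG). The VAMP7 window had a GC content of 58.4%, near the 58.0% median of 27195 promoters. The VAMP3 and STX3 windows were richer in GC, at 73.2% and 74.4%. Among the 58 members with a promoter in the table, 2 windows (3.45%) held ACAAAG, against 13.6% of all promoters, and 4 (6.9%) held ACAATG, against 9.4%. CCAAT stood in 18 member windows (31.0%) and in 33.0% of all promoters. Of the 9 matched promoters of lowered members, 0 held ACAAAG, 1 (STX2) held ACAATG and 2 (STX5 and VAMP7) held CCAAT. These matches describe letters in a window and say nothing of binding.

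SOX4 mRNA was lower on every array with the SOX4 hairpin. Its deposited intensity was 291, 357 and 336 on the scrambled arrays and 136, 155 and 146 on the SOX4 shRNA arrays, with a normalized log2 difference of -2.43 ± 0.14 (SE; adjusted p = 4.1e-13, limma). This value was -1.15 with no background correction and -3.22 with the authors' values, and the call held in both. The probe was detected on 2 of the 3 SOX4 shRNA arrays. Each array detected 15197 to 16187 probes, and precision is limited by how few arrays there are. Arrays of the same group correlated at 0.994 or more and arrays of different groups at 0.982 or less, across probes that are not independent. The line's markers VIM, CD44, KRT8 and KRT18 were detected on all 6 arrays, while ESR1, PGR and CDH1 were detected on none and ERBB2 on all. Of 7 neuronal or neuroendocrine markers on the chip, SYP, CHGA, CHGB, MAP2 and NEFL were detected on no array. SYN1 was detected on 1 scrambled array, and ENO2 on all arrays, with a log2 difference of -0.77. The summed intensity of that list ran from 1753 to 1796 with the scrambled hairpin and from 1631 to 1665 with the SOX4 hairpin. The leucocyte list ran from 2760 to 3112 and from 4446 to 4875, with PTPRC and CD3D detected on no array, CD14 and CD74 on all 6 and LYZ on 5. Endothelial markers (1 of 4 detected on at least 3 arrays) summed to 461.1 to 477.6 and 459.9 to 489.4, and fibroblast markers (3 of 6 detected on any array) to 1276 to 1335 and 1297 to 1324. The part of these shifts in the results below was not tested.

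In these cells 44 of the 72 genes gave a signal that could be compared, meaning a probe whose detection p was under 0.01 on 3 or more arrays. At an adjusted p under 0.05 in limma, 10 were lower and 6 were higher with the SOX4 hairpin, and 28 did not pass. The 16 genes that passed make 36.4% of those tested, against 30.6% of all 12451 genes and unnamed probes tested (15.2% raised and 15.4% lowered). The 3 values of one group lay wholly outside those of the other for 19 members (43.2%), against 42% of all rows. The median log2 difference of the members was 0.02, against -0.01 over all rows. By count and by median the members therefore stood near the background, and the account below concerns which members moved. Changes of at least 1.5-fold that passed the test were found for 6 members (13.6%), against 7.28% of all rows. These were VAMP7, SYTL2, STX1A and VAMP3, which fell, and STX3 and NAPG, which rose. With no background correction SYTL2 (-0.46), STX1A (-0.43) and NAPG (0.28) still passed the test but at less than 1.5-fold. Of the dimmer called members, SYT15 (-0.21), SNAP23 (0.16) and SYTL4 (0.19) were also smaller there by over 1.5 times.

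**Figure D1:**
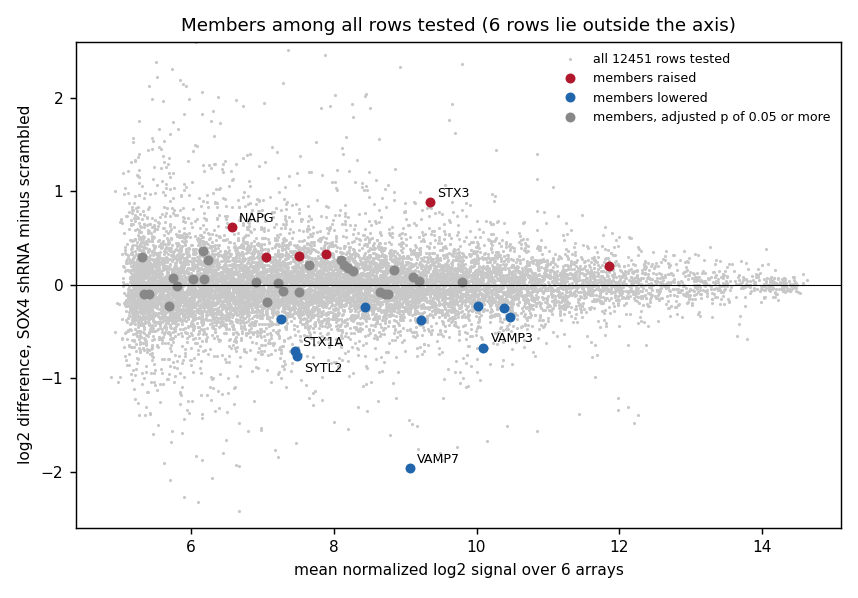
Log2 difference (SOX4 shRNA minus scrambled) against mean normalized log2 signal for all 12451 rows tested (small grey points) and 43 of the measured members (large points, red raised, blue lowered, grey adjusted p of 0.05 or more). VAMP7 lies near -2, and most members lie within 0.5 of 0.

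VAMP7, an R-SNARE, had the largest fall of any measured member. By symbol, 11 genes were grouped as R-SNAREs: the VAMP family, YKT6 and the SEC22 genes. Grouping by name does not show that SEC22A and SEC22C carry a SNARE motif. All 11 were measured, and on the brightest probe 4 fell (VAMP7, VAMP3, VAMP4 and SEC22C), 1 rose (VAMP8) and 6 did not pass. Of these 11 genes 45.5% were called, against 30.6% of all rows, and their median log2 difference was -0.10. VAMP7 carried a normalized log2 signal of 10.02, 10.14 and 10.00 on the scrambled arrays and of 8.03, 8.12 and 8.11 on the SOX4 shRNA arrays. In deposited intensity the scrambled values were 1059, 1236 and 1086 and the SOX4 shRNA values 364, 388 and 393. All 3 SOX4 shRNA arrays were thus far below all 3 scrambled arrays, while the arrays of a group stayed close together. On the log2 scale this is -1.96 ± 0.07 (SE, n = 3 per group), or 3.90-fold less, with a 95% interval from -2.11 to -1.81 (adjusted p = 6.3e-17, limma). Ranked by fitted difference, it was in place 6 from the bottom of all 12451 rows. Of these rows 0.948% fell at least 2-fold with an adjusted p under 0.05 in limma. The authors' deposited table gives VAMP7 a fold of 0.25. Its only probe on the chip, ILMN_1690524, was detected on every array, so the fall was measured without a detection bound, and no second probe checks it.

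VAMP3, also called cellubrevin and known for recycling endosome traffic, was the other R-SNARE with a change over 1.5-fold. Its log2 signal was 10.45, 10.61 and 10.23 on the scrambled arrays and 9.74, 9.75 and 9.78 with the SOX4 hairpin. The scrambled arrays were the more spread group, and the lowest of them was still above every SOX4 shRNA array. The log2 difference was -0.67 ± 0.07 (SE, n = 3 per group), or 1.59-fold less (adjusted p = 8.7e-08, limma). Its 95% interval of -0.82 to -0.52 does not meet that of VAMP7. VAMP8, or endobrevin, which acts in endosome fusion and regulated exocytosis, was the R-SNARE that rose. Its log2 signal was 11.75, 11.83 and 11.67 in the controls and 12.06, 11.85 and 11.95 after SOX4 depletion. The lowest SOX4 shRNA value, 11.85, was just above the highest control value, 11.83, and the log2 difference was 0.20 ± 0.06 (SE; adjusted p = 0.0092, limma). That call was lost without scrambled array 2b (0.16), without SOX4 shRNA replicate 1 (0.15) and, at 0.20, with no intensity trend or with the authors' values.

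VAMP4, a trans-Golgi R-SNARE, had a log2 difference of -0.24 ± 0.08 (SE; adjusted p = 0.028, limma). It lost its call without scrambled array 2b (-0.18), SOX4 shRNA replicate 1 (-0.23) or SOX4 shRNA replicate 2 (-0.21). The VAMP4 call was also lost with no detection filter, with no intensity trend (both -0.24), with the mean of its probes (-0.24) and with the authors' values (-0.28). SEC22C, of the endoplasmic reticulum, had -0.23 ± 0.07 on its brightest probe. The SEC22C call was lost when scrambled 2a (-0.18) or SOX4 shRNA replicate 1 (-0.19) was left out. It was also lost with no intensity trend (-0.23), with the authors' values (-0.10) and with the mean of its probes (-0.0077). A different SEC22C probe rose, by 0.38 ± 0.09 (adjusted p = 0.0016 with every kept probe tested), so no direction can be given for that gene. The genes of this group that did not pass were VAMP1, VAMP2, VAMP5, YKT6, SEC22A and SEC22B. VAMP2, or synaptobrevin, which pairs with the same plasma membrane Q-SNAREs in secretion, had a log2 difference of -0.06, with a 95% interval from -0.30 to 0.17. For the Golgi and endoplasmic reticulum R-SNARE SEC22B it was -0.08, from -0.26 to 0.10. VAMP1, VAMP5 and YKT6 were dim: the group means of YKT6 were 5.39 and 5.29, and it was detected on 3 scrambled arrays and 1 SOX4 shRNA array.

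**Figure D2:**
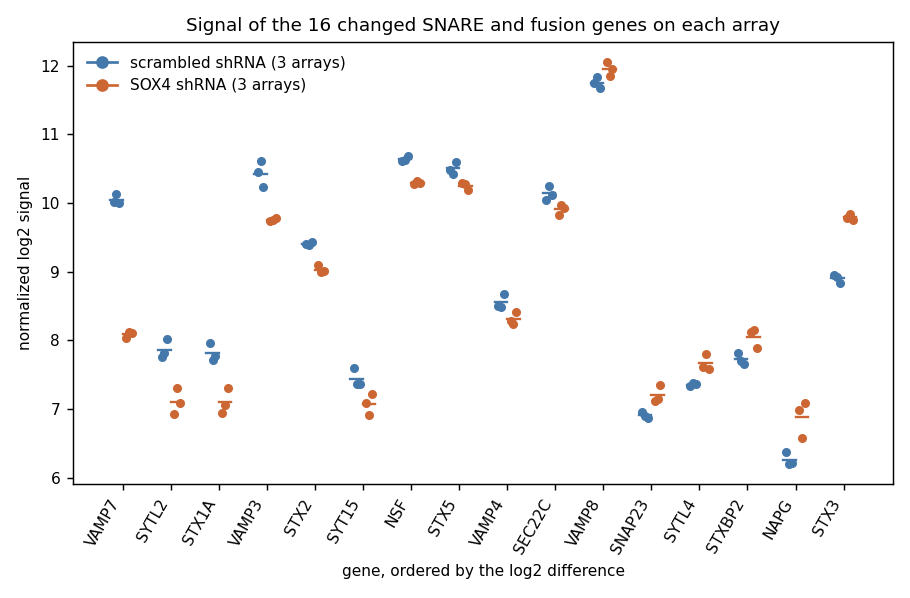
Normalized log2 signal on each array (points) and group mean (bars) of the 16 members that passed the test, in order of their log2 difference. The 3 scrambled and 3 SOX4 shRNA points of VAMP7 are about 2 log2 units apart, while for VAMP8 and SNAP23 the groups nearly touch.

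Syntaxins of the plasma membrane moved in opposite directions. STX3, known for apical and regulated exocytosis and as a partner of VAMP7 and VAMP8, had a log2 signal of 8.96, 8.93 and 8.84 on the scrambled arrays and of 9.79, 9.84 and 9.75 on the SOX4 shRNA arrays. All 3 SOX4 shRNA arrays were higher by far more than the arrays of a group differed. The log2 difference was 0.88 ± 0.07 (SE, n = 3 per group), or 1.85-fold more (adjusted p = 1.5e-10, limma), and the authors' deposited table gives STX3 a fold of 1.86. STX1A, known best from neuronal and endocrine exocytosis, had 7.96, 7.72 and 7.77 against 6.95, 7.06 and 7.31. Its groups did not overlap, the highest SOX4 shRNA value being 7.31 and the lowest scrambled value 7.72. The log2 difference of STX1A was -0.71 ± 0.11 (SE; adjusted p = 1.3e-05, limma).

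STX2, or epimorphin, had a log2 signal of 9.40, 9.39 and 9.44 with the scrambled hairpin and 9.09, 8.99 and 9.01 with the SOX4 hairpin. The arrays of each group were tightly grouped, and the log2 difference of STX2 was -0.38 ± 0.07 (SE; adjusted p = 0.00012, limma). STX4, the widely expressed plasma membrane syntaxin, had 8.91, 9.25 and 9.05 against 9.09, 9.01 and 9.34, and its groups overlapped. Its log2 difference was 0.08, with a 95% interval from -0.10 to 0.26, and did not pass. SNAP23, the ubiquitous relative of SNAP25 that completes complexes at the plasma membrane, had 6.96, 6.90 and 6.87 against 7.12, 7.14 and 7.35. The SNAP23 groups did not overlap, and the log2 difference was 0.30 ± 0.11 (SE; adjusted p = 0.044, limma), or 0.51 on its other kept probe. The SNAP23 call was lost with 5 of the 6 arrays left out in turn: scrambled 1 (0.32), 2a (0.29) and 2b (0.28) and SOX4 shRNA 2 (0.33) and 3 (0.22), and with no detection filter (0.30). SNAP25, its neuronal relative, was detected on no array.

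Among Q-SNAREs of internal membranes, 1 of those measured passed the test. STX5, a Golgi syntaxin, had a log2 signal of 10.49, 10.43 and 10.60 in the controls and 10.30, 10.27 and 10.20 after SOX4 depletion, with no overlap. Its log2 difference was -0.25 ± 0.06 (SE; adjusted p = 0.003, limma), and its call was lost with the authors' values (-0.29). The endosomal syntaxins STX6, STX7, STX8 and STX12 and the trans-Golgi syntaxins STX10 and STX16 had log2 differences between -0.19 (STX12) and 0.04 (STX8), and each had overlapping groups. STX6 passed the threshold without scrambled replicate 1 (-0.26). BET1, GOSR2 and USE1, Q-SNAREs of traffic between endoplasmic reticulum and Golgi, lay close to the threshold with log2 differences of 0.26, 0.21 and 0.36 (adjusted p = 0.051, 0.069 and 0.056, limma). Each passed with some arrays left out: BET1 without scrambled 2a (0.35) or SOX4 shRNA 3 (0.33), GOSR2 without SOX4 shRNA 3 (0.29) and USE1 without SOX4 shRNA 1 (0.43). The sign of GOSR2 turned with the authors' values (-0.13). STX11 was detected on 1 scrambled and 2 SOX4 shRNA arrays and had the widest 95% interval, from -0.21 to 0.80. VTI1A and STX19 were detected on no array, and STX18 on 2. Over all 22 measured Q-SNAREs, 2 rose and 3 fell (22.7% called, against 30.6% of all rows), with a median of 0.05.

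Of the 4 factors that take used SNARE complexes apart, 1 fell and 1 rose (50% called, against 30.6% of all rows). The ATPase NSF had a log2 signal of 10.61, 10.63 and 10.69 on the scrambled arrays and 10.28, 10.32 and 10.30 on the SOX4 shRNA arrays. Both groups were tight and did not overlap. The log2 difference of NSF was -0.35 ± 0.06 (SE; adjusted p = 4.2e-05, limma), with -0.34 and -0.13 on its other kept probes, and its call was lost with the authors' values (-0.26). NSFP1 is a transcribed pseudogene copy of NSF, and the files do not say whether the probes separate them. NAPG, or gamma-SNAP, had a log2 signal of 6.37, 6.20 and 6.21 against 6.98, 6.58 and 7.09. The lowest SOX4 shRNA value stood apart from the other two and still above all controls. NAPG thus differed by 0.62 ± 0.14 on the log2 scale (SE; adjusted p = 0.0012, limma). Its relatives NAPA and NAPB, alpha- and beta-SNAP, had 0.06 and 0.03 and did not pass.

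Among the proteins that bind syntaxins, STXBP2 (Munc18-2), the partner of STX3 and STX11 in secretion, was higher. Its log2 signal was 7.82, 7.69 and 7.66 with the scrambled hairpin and 8.13, 8.15 and 7.88 with the SOX4 hairpin, and SOX4 shRNA replicate 3 lay nearest the controls. STXBP2 differed by 0.33 ± 0.09 on the log2 scale (SE; adjusted p = 0.009, limma), and its call was lost without SOX4 shRNA replicate 2 (0.28) and with the authors' values (0.36). STXBP3 (Munc18c) and STXBP5 (tomosyn) had log2 differences of 0.21 and 0.27 and did not pass. STXBP4 was detected on 2 arrays, and STXBP5L and STXBP6 on none.

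Synaptotagmins, a family of which only some members are calcium sensors of exocytosis, were mostly below the detection threshold in these cells. Of 18 on the chip, 17 had no kept probe, and of these SYT1, SYT7, SYT11 and SYT12 were detected on 1 array and SYT3 on 2. SYT15 was the measured member, with a log2 difference of -0.37 ± 0.11 (SE; adjusted p = 0.013, limma) and -0.20 on its other kept probe. The SYT15 call was lost without scrambled replicate 1 (-0.29) or SOX4 shRNA replicate 2 (-0.29), with the mean of its probes (-0.28) and with the authors' values (-0.33). SYT15B is a gene copy that the probe may share. The synaptotagmin-like proteins, which dock vesicles through the GTPase RAB27A, had 2 of 5 members measured, and these moved in opposite directions. SYTL2 had a log2 signal of 7.76, 7.82 and 8.02 against 6.93, 7.30 and 7.09, with no overlap. SYTL2 had a log2 difference of -0.76 ± 0.11 (SE; adjusted p = 5.3e-06, limma), and -0.53 on its other kept probe. The authors' deposited table gives SYTL2 a fold of 0.86, and its call was lost with the authors' values (-0.25). The reason was not tested, and with the mean of its kept probes the SYTL2 call held (-0.64). SYTL4, or granuphilin, had a log2 difference of 0.31 ± 0.10 (SE; adjusted p = 0.018, limma). The SYTL4 call was lost without scrambled replicate 1 (0.30) or SOX4 shRNA replicate 2 (0.24), and with the authors' values (0.35).

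**Figure D3:**
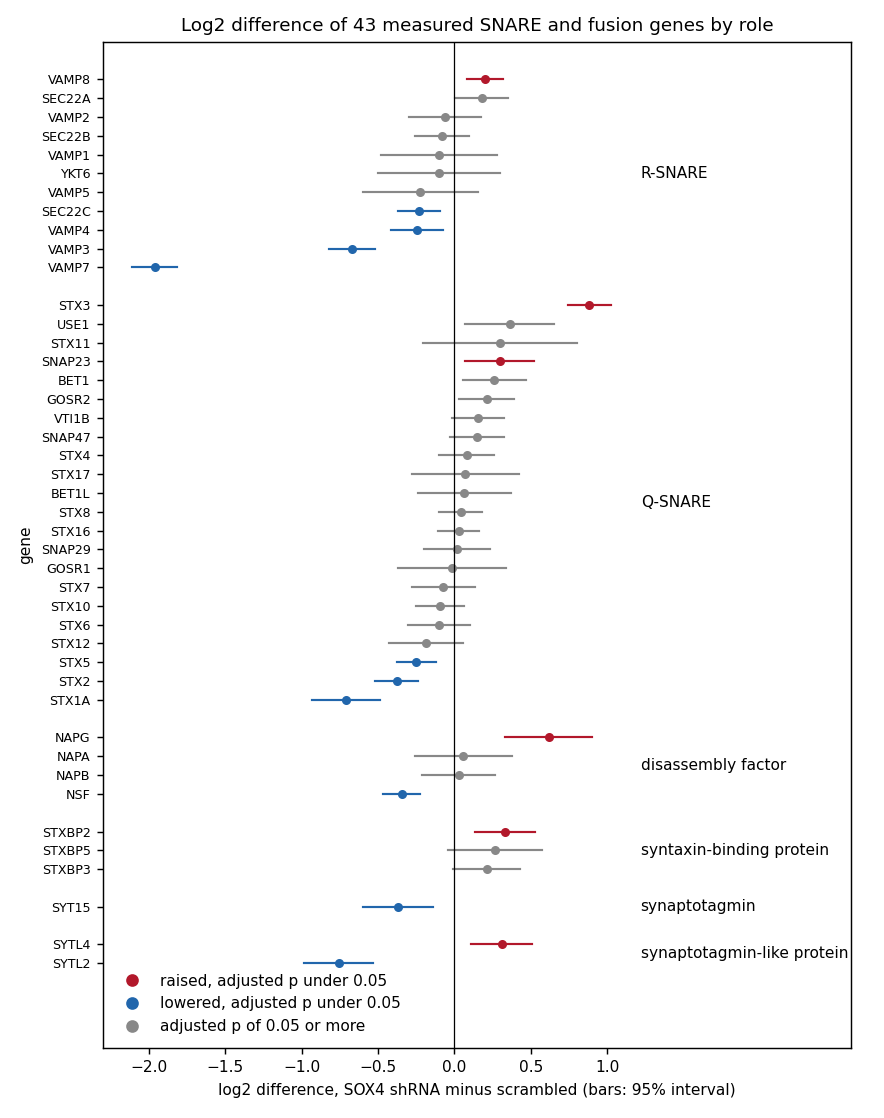
Log2 difference (SOX4 shRNA minus scrambled) of 43 of the measured members with 95% intervals from limma, grouped by role. Red and blue mark members raised or lowered at an adjusted p under 0.05. The interval of VAMP7 (-2.11 to -1.81) meets that of no other member.

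For the 28 members that did not pass, the 95% intervals of the log2 difference reached a median of 0.23 to either side. For 25 of them the whole interval lay within a 1.5-fold change either way, on the brightest probe and with the main processing only. The intervals of VAMP5, STX11 and USE1 reached past 1.5-fold on 1 side, so a larger change that way is not excluded for them. The same holds for GOSR1 on its other kept probe, which was detected on no SOX4 shRNA array. That probe had -0.37, with an interval of 0.44 to either side when every kept probe was tested. Dim members were harder to judge. Of the 21 members at or above the median log2 signal of all rows (7.81), 10 passed (47.6%), against 38.4% of all rows there. Of the 23 members below it, 6 passed (26.1%), against 22.8%. The 28 genes without a kept probe comprise 21 detected on no array and 7 detected on 1 or 2. At this depth their changes were not detectable.

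Of the 44 measured members, 12 had more than 1 kept probe, which gives a check within the gene. Over the 60 kept probes of the members, 22 (36.7%) passed with every kept probe tested, against 28.9% of all 15717. Every kept probe of STX2, STX5, NSF, SYT15, SYTL2 and VAMP4 was lower with the SOX4 hairpin, and every kept probe of SNAP23 was higher. STX2 had -0.38 and -0.35, SYTL2 had -0.76 and -0.53, and the 3 STX5 probes lay between -0.26 and -0.25, 1 of them past the threshold. Both kept probes of GOSR1 were below 0 without passing, and those of SNAP47 and STX6 lay on either side of it. SEC22C was the gene whose kept probes passed the threshold in opposite directions, with -0.23 and 0.38 and a further probe at -0.17. The files do not say which transcripts each probe matches.

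**Figure D4:**
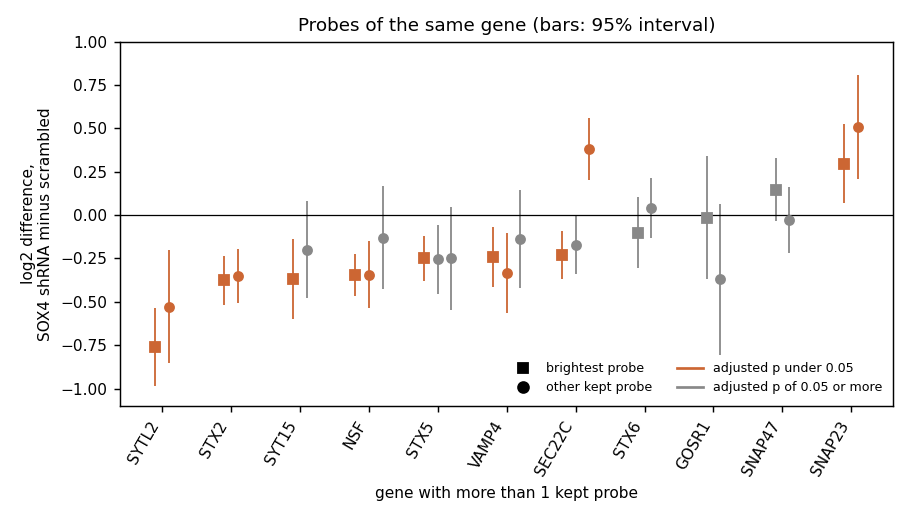
Log2 difference (SOX4 shRNA minus scrambled) with its 95% interval for each kept probe of 11 members with more than 1. Squares mark the brightest probe, and orange an adjusted p under 0.05 with every kept probe tested. SEC22C has orange probes on both sides of 0.

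Proteins known to steer VAMP7 also included a member with a large fall. Of 14 listed partners, 13 were measured, and 4 fell, 2 rose and 7 did not pass (46.2% called, against 30.6% of all rows; median log2 difference -0.11, against -0.01). RAB38, a GTPase of lysosome-related organelles whose effector ANKRD27 (Varp) binds VAMP7, had a mean log2 signal of 8.32 ± 0.06 with the scrambled hairpin and 6.63 ± 0.21 with the SOX4 hairpin (SD, n = 3). The log2 difference of RAB38 was -1.69 ± 0.11 (SE; adjusted p = 4.3e-12, limma). Its relative RAB32 had -0.37 ± 0.06, and AP3S1 and AP3B1, subunits of the AP-3 adaptor that sorts VAMP7, had -0.21 and -0.15. AP3B1 lay close to the threshold (adjusted p = 0.049, limma). The other listed AP-3 subunits did not pass: AP3D1 had -0.02, AP3M1 0.05, AP3M2 -0.11 and AP3S2 -0.07. ANKRD27 rose by 0.40, as did PLEKHM1, a late endosome adaptor, by 0.39. AGFG1 (Hrb), which takes VAMP7 up from the surface, had -0.11 and did not pass. Without scrambled replicate 1 or 2a or SOX4 shRNA replicate 1 or 2, 1 partner rose, and without 2a or either of those SOX4 shRNA replicates 2 fell. With cyclic loess, no detection filter or every kept probe tested, 3 partners fell.

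Among 38 Rab GTPases, 3 of which are also on the partner list, 28 were measured, and 5 fell and 1 rose (21.4% called; median -0.10). Besides RAB38 and RAB32, RAB4A had -0.52 and RAB8B -0.26. RAB15, an endosomal GTPase, was detected on no scrambled array and on all SOX4 shRNA arrays, which alone carried it past the detection filter. Its call as raised (adjusted p = 2.4e-11, limma) tests the fitted difference, whose scrambled values were below detection, and not a measured fold. The size of the RAB15 rise can be given only as a lower bound, of 3.90-fold. This bound sets the mean of the SOX4 shRNA arrays against the lowest detected signal of the scrambled arrays, or the probe's own where higher. Without scrambled replicate 1, 2 Rab genes rose. Of 45 tethering and priming genes, 31 were measured, and 5 fell and 3 rose (25.8% called; median -0.05). COG4 and COG1, of the Golgi tethering complex, had -0.51 and -0.47, the priming factor UNC13B -0.45 and VPS45, a Sec1/Munc18 protein, -0.38. SCFD1, the Sec1/Munc18 partner of STX5, rose by 0.44, the exocyst subunit EXOC4 by 0.27 and the HOPS subunit VPS41 by 0.23. The shares called in the Rab and tethering lists were below that of all rows.

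**Figure D5:**
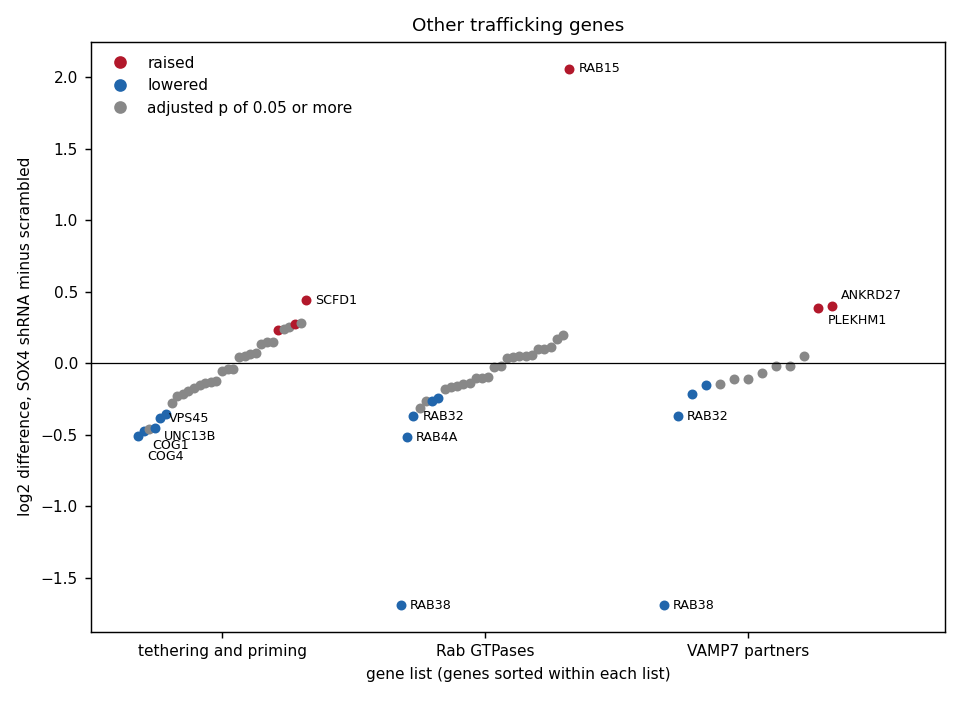
Log2 difference (SOX4 shRNA minus scrambled) of each measured gene on the lists of tethering and priming factors, Rab GTPases and VAMP7 partners, sorted within each list; names mark called genes beyond 0.36. RAB38 (-1.69) stands apart at the bottom, and RAB15, at the top, was not detected on any scrambled array, so its plotted fitted difference is not a measured fold.

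The genes next to VAMP7 on chromosome X in the RefSeq table gave no comparison. TMLHE, SPRY3 and IL9R were detected on no array, and H2AB3 is not a symbol of the chip table.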

How the data were processed

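The 6 samples, 3 per group, were hybridised to Illumina HumanHT-12 v4 arrays. The authors deposited linear probe intensity and a detection p-value per array, without background subtraction or normalization; GenomeStudio 2011.1 appears in the submitters' processing notes. They also deposited log2 values per gene symbol, and a table of log2 group means with a linear fold, for which the file headers name RMA and ArrayStar. That table's second mean carries another hairpin's name in its column, while its header lines name the SOX4 hairpin samples. A pair of scrambled intensity columns share the heading of replicate 2 and are called 2a and 2b. All columns of single samples were used.

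Intensities were processed with neqc (offset 16, quantile) in limma 3.58.1 under R 4.3.3. A probe was kept (15717 were) where its detection p was under 0.01 on 3 or more arrays, and the brightest stood for each symbol. The fit was lmFit and eBayes, with the variance following intensity, over all 12451 rows, with Benjamini-Hochberg adjustment at 0.05. Quantile normalization holds the overall median near 0. Differences are SOX4 shRNA minus scrambled. The fit was tested on simulated arrays with changes of at least 1.5-fold in bright probes. Dim probes and smaller changes were not covered. Members, lists and the naming rule (SOX4, every called member, others where they bear on a comparison in the family, up to 4 raised and 4 lowered genes per further list) were chosen with earlier results of these data known. Some single values are not reported here. Promoters are from RefSeq (GRCh38.p14), and 58 of 72 members matched. Alternatives were no background correction, another normalization, filter, probe rule or variance model, the authors' values, the replicate block and leaving out each array.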

Additional observations from a re-analysis of the deposited data

How the results depend on the processing

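VAMP7 and SOX4 kept their direction and passed the threshold under every alternative that gave a value, and so did STX3, STX1A, VAMP3, STX2 and NAPG. VAMP7 ran from -2.05 with the authors' values to -1.60 with no background correction. SOX4 ran from -3.22 to -1.15 under those settings, and detection on all 6 arrays left no value for it. Of the 16 calls, 16 were kept with no background correction, cyclic loess, detection on all 6 arrays or every kept probe. With cyclic loess or detection on all 6 arrays, BET1 and USE1 passed as well, and 8 members rose. With the authors' values 7 were kept: 3 members rose and 4 fell, and 6.23% of all rows there were called. The cause of the lower counts there was not tested. With 1 array left out, 3 to 7 members rose and 8 to 10 fell, the 3 being without SOX4 shRNA replicate 2. The median of the members, 0.02, ranged from -0.07 (authors' values) to 0.03.

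The replicate block could be fitted only on the authors' values, whose columns carry sample names. There 2 members rose and 4 fell with the replicate block, SNAP23 being lost. The deviations of same-numbered samples were nearly uncorrelated (0.0058, 0.0029 and -0.0049), and only replicate 1 matched its own number best. Whether same-numbered samples were handled together cannot be told from these values. With the block, 0 tethering genes rose and 3 fell, 3 Rab genes fell, and 0 VAMP7 partners rose and 2 fell. Without the block 5 tethering genes fell, and the other counts were the same: 0 tethering genes rose, 3 Rab genes fell, and 0 partners rose and 2 fell. With no detection filter 1 tethering gene and 1 partner rose. With no intensity trend 1 tethering gene rose, and 0 partners rose and 2 fell. With detection on all 6 arrays 0 Rab genes rose, since RAB15 was then not tested. With 1 array left out, 1 to 2 Rab genes rose, 1 to 2 partners rose and 2 to 4 fell.

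Signs turned for members that had not passed, and except for GOSR2 their differences lay near 0. GOSR2, at 0.21 with groups that did not overlap, was -0.13 with the authors' values, with and without the block. With 1 array left out, the ranges that crossed 0 were -0.034 to 0.11 for NAPB, -0.0037 to 0.17 for NAPA, -0.0034 to 0.062 for STX16, -0.095 to 0.13 for GOSR1, -0.030 to 0.12 for BET1L, -0.012 to 0.19 for STX17, -0.030 to 0.072 for SNAP29, -0.13 to 0.073 for VAMP2 and -0.015 to 0.17 for STX4. No fit with slide as a block was made, since the files used here name no slides.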
